A study of Mus musculus with 41 samples.

Results

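The TNF superfamily couples trimeric ligands, most of them made as membrane proteins, to receptors with cysteine-rich extracellular repeats. Receptors that carry a death domain, such as TNFR1 and Fas, can start caspase activation, while those that bind TRAF adaptors drive NF-kB and MAP kinase signalling, and decoy receptors bind ligand without a working signalling tail. In inflamed tissue and tumours, macrophages, monocytes and neutrophils make TNF and several costimulatory ligands, and they carry both TNF receptors.

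The 10 genes described here are TNF superfamily ligands and receptors that myeloid cells express, taken by gene symbol from the 55453 genes of the authors' deposited tables. The 6 ligand genes are Tnf, Tnfsf9, Tnfsf10, Tnfsf12, Tnfsf13b and Tnfsf14, and the 4 receptor genes are Tnfrsf1a, Tnfrsf1b, Tnfrsf9 and Tnfrsf23. All 10 were found in each of the 3 tables, and all 10 carried an adjusted p-value in each. MC38-luc, a mouse colon adenocarcinoma line with a luciferase gene, was grown in the rectum of female C57BL6 mice, whose age is not given in the labels. Irradiated tumours were given 5 daily fractions of 5 Gy each, from day 9 to day 13 after implantation, untreated tumours received none, and both were taken on day 14. Tumour-associated macrophages (TAM; Ly6C-, Ly6G-, F4/80+), inflammatory monocytes (Ly6C+, Ly6G-) and granulocytes (Ly6C+, Ly6G+) were sorted from CD45+ CD11b+ cells and sequenced in bulk. There were 10 irradiated and 5 untreated TAM libraries, 9 irradiated and 5 untreated inflammatory monocyte libraries, and 7 irradiated and 5 untreated granulocyte libraries, 41 in all from 15 tumour numbers.

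The deposited values compare irradiated with untreated cells within each subset. Each gene has a mean normalised count over libraries, a log2 fold change (written log2 fold below) taken here to be shrunken towards 0, and a Wald statistic, the effect in units of its standard error. No single-library values were analysed here, so depth per library is unknown, no SD can be given, and neither the overlap of groups nor the sorted identity of a subset could be examined by library. A gene was called at an adjusted p under 0.05, with the direction taken from the Wald statistic. For the 10 genes, fold and Wald statistic had the same sign in all 3 comparisons. In bulk libraries, a larger share of cells that express a gene cannot be told apart from more RNA per cell.

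Tnfrsf9 was the gene of the 10 with the smallest adjusted p in every subset. It encodes 4-1BB (CD137), a costimulatory receptor best known from activated T and NK cells and also made by activated myeloid cells. In the authors' deposited table its log2 fold change was 2.23 in TAM (Wald statistic 7.54, adjusted p = 7.4e-12). The authors' deposited table for inflammatory monocytes gave it 1.70 (Wald statistic 5.68, adjusted p = 5.8e-06), and that for granulocytes 1.53 (Wald statistic 4.90, adjusted p = 5.8e-05). Tnfrsf9 thus rose in all 3 subsets, and no other gene of the 10 did. Markers of T and NK cells, for which this receptor is best known, were also read over all libraries. The 14 genes summed to a mean normalised count of 1012, and Tnfrsf9 had 4643 in the authors' deposited tables. Both values pool the libraries of all 3 subsets and are not divided by exon length. They cannot size the part of T and NK cells in any comparison. Of these 14 markers, 14.3% fell in TAM beside 12.5% of all genes tested, 0 fell in inflammatory monocytes beside 1.77%, and 21.4% fell in granulocytes beside 9.9%. By the authors' DESeq2 test at an unadjusted p under 0.05, 0 were higher in each of the 3 comparisons, and 5 were lower in TAM, 4 for inflammatory monocytes and 8 for granulocytes. Among all genes tested, 2919 of 16851 were lower at that p in TAM, 1124 of 14506 in inflammatory monocytes and 2619 of 15679 in granulocytes. Trac, the T cell receptor alpha constant gene, had log2 fold changes of -1.28 in TAM and -1.16 in granulocytes in the authors' deposited tables, past the threshold in both. Eosinophil markers, from another list, summed to a mean normalised count of 1253.9. Of those tested, 4 of 5 rose in TAM, 2 of 5 in inflammatory monocytes and 1 of 5 in granulocytes, and 0 fell in each. Over all genes tested, 13.9%, 4.13% and 7.32% rose. The part of T and NK cells, eosinophils or cells of the other marker lists in the values of Tnfrsf9 was not tested.

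**Figure D1:**
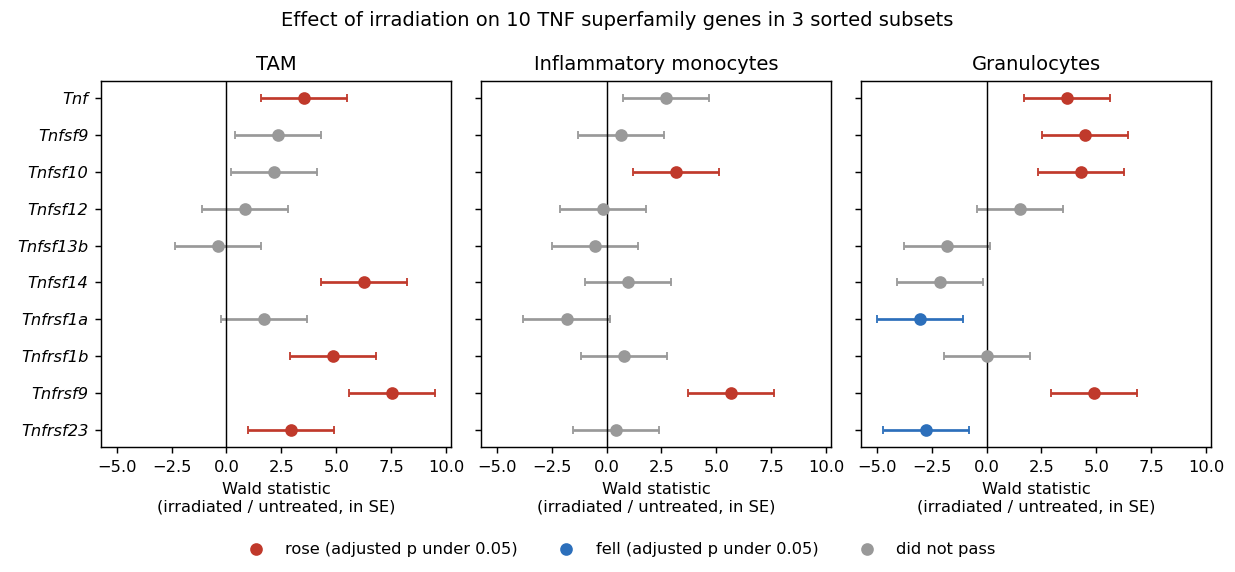
Wald statistic of each of the 10 genes (x axis, effect of irradiation in standard errors) in TAM, inflammatory monocytes and granulocytes, with a 95% normal interval of 1.96 on each side; colours mark genes that passed an adjusted p of 0.05. Tnfrsf9 lies right of 0 in all 3 panels (7.54, 5.68 and 4.90), while Tnfrsf23 is at 2.92 in TAM and -2.76 in granulocytes.

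RefSeq promoter sequences were at hand for 8 of the 10 genes, and 3 that rose in TAM are printed because they differ in the motifs they hold. Each run gives the 250 bases before a transcription start, 5′ to 3′ on the gene's strand, in build GRCm38.p6, while the reads were aligned to GRCm39. Capitals mark matches to the NF-kB consensus, to the AP-1 motif TGACTCA, to the interferon response core GAAANNGAA (all on both strands) or to TATAAA (gene strand).
Tnfrsf9, upstream start, chr4:150919905-150920154, + strand: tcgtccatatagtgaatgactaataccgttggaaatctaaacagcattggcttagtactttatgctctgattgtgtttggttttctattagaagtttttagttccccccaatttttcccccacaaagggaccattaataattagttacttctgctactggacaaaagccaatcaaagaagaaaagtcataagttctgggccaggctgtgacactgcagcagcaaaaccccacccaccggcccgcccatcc
Tnfrsf9, downstream start, chr4:150927749-150927998, + strand: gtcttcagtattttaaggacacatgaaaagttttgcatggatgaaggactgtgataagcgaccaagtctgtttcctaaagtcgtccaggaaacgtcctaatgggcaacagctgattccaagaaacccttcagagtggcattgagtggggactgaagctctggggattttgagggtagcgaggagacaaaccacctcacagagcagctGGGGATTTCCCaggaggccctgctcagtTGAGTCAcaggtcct
Tnf, chr17:35202008-35202257, - strand: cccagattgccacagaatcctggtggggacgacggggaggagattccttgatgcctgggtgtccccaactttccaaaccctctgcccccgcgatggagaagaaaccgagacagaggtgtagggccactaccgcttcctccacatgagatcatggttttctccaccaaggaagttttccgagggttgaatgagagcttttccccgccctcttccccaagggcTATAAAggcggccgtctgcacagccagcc
Tnfsf14, chr17:57194182-57194431, - strand: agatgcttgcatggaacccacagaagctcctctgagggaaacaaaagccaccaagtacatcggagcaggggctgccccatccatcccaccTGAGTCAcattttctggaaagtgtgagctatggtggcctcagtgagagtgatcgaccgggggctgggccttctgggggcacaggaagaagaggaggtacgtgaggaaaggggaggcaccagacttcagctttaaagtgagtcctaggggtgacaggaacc

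The downstream start of Tnfrsf9 had overlapping NF-kB matches between 43 and 33 bases before the start and an AP-1 match, read on the other strand, at 15 to 9 bases before it. Its upstream start held none of the 4 motifs. In Tnf the only match was a TATA box at 29 to 24 bases before the start. Tnfsf14 held an AP-1 match at 160 to 154 bases before its start, again on the other strand. Over 32851 RefSeq promoters, 7.25% held the NF-kB consensus, 4.46% the AP-1 motif, 7.13% the interferon response core and 7.59% TATAAA. Of the promoters not printed, Tnfrsf1b held an interferon response core next to its start, a second start of Tnfsf13b held that core and an AP-1 match, and those of Tnfsf10, Tnfrsf1a, Tnfrsf23 and the other start of Tnfsf13b held none. These are matches of letters within the window searched, and binding was not measured.

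Levels over all libraries differed widely between the 10 genes. Per kb of exon, the authors' deposited mean count was highest for Tnfrsf1b, at 6650 normalised counts per kb, with Tnfrsf1a at 3840, Tnf at 3500 and Tnfrsf9 at 1710. These 4 held the first 4 places among 46 ligand and receptor genes of the superfamily. Tnfsf14 followed at 920, Tnfrsf23 at 808 and Tnfsf9 at 695 mean normalised counts per kb. Tnfsf10 had 69.8, Tnfsf12 59.3 and Tnfsf13b 36.6 mean normalised counts per kb, and these are the 3 lowest of the 10. One mean serves all 3 tables and cannot order the subsets, and no spread over libraries stands behind this order.

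**Figure D2:**
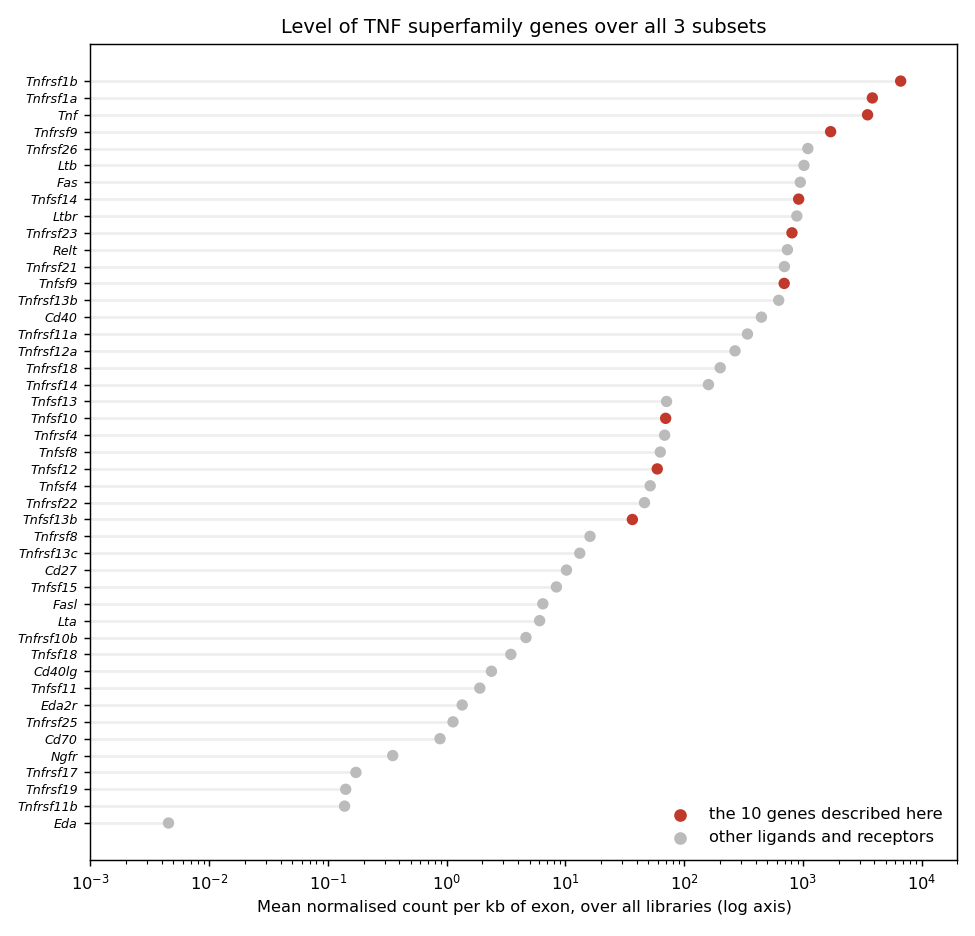
Mean normalised count per kb of exon over all libraries of the 3 subsets (log x axis) for 45 TNF superfamily genes, with the 10 genes described here in red and the others in grey; Edar, listed at 0, is not drawn. Tnfrsf1b, Tnfrsf1a, Tnf and Tnfrsf9 stand at the top, from 6650 to 1710.

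In TAM, 5 of the 10 genes rose and 0 fell at the threshold of the authors' DESeq2 Wald test, and at an unadjusted p under 0.05 it was 7 higher and 0 lower. Over the 16851 genes tested in TAM, 13.9% rose and 12.5% fell, and 3272 were higher and 2919 lower at an unadjusted p under 0.05. The median log2 fold change of the 10 genes was 0.82, beside 0.03 over all genes tested. Among ligands, Tnfsf14, which encodes LIGHT, a ligand of the lymphotoxin beta receptor and of HVEM, had a log2 fold of 1.49 in the authors' deposited table (Wald statistic 6.26, adjusted p = 2.2e-08). Tnf, the gene of the founding cytokine of the family, had 0.92 in the authors' deposited table (Wald statistic 3.54, adjusted p = 0.003). Tnfsf9, the 4-1BB ligand, and Tnfsf10, which encodes the death ligand TRAIL, missed the threshold with log2 fold changes of 0.61 and 0.85 in the authors' deposited table (adjusted p = 0.068 and 0.091). Neither Tnfsf12 (TWEAK) nor Tnfsf13b (BAFF, a B cell survival factor) passed, with 0.25 and -0.08 in the authors' deposited table.

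Of the receptor genes whose products bind TNF itself, Tnfrsf1b passed in TAM and Tnfrsf1a did not. Tnfrsf1b encodes TNFR2, the receptor without a death domain that responds best to membrane TNF, and it had a log2 fold of 1.25 in the authors' deposited table (Wald statistic 4.84, adjusted p = 2.5e-05). Tnfrsf1a, which encodes the death domain receptor TNFR1, had 0.27 and did not pass (Wald statistic 1.73 and adjusted p = 0.20 by the authors' deposited table). Tnfrsf23, a mouse decoy receptor for TRAIL, had 0.78 in the authors' deposited table (Wald statistic 2.92, adjusted p = 0.018). The difference between the folds of Tnfrsf1b and Tnfrsf1a was not tested. Dividing Wald statistics by their robust SD over genes, 2.72 in TAM, ended all calls among the 10 genes in each subset, Tnfrsf9 included. Marker lists were counted in TAM, where 13.9% of all genes rose and 12.5% fell. Those that rose were 9 of 11 neutrophil, 4 of 8 classical monocyte, 4 of 5 tested eosinophil and 3 of 10 macrophage markers. Also risen were 2 of 7 epithelial and tumour cell markers and 1 of 4 tested endothelial markers. Those that fell were 5 of 9 dendritic cell, 2 of 6 fibroblast, 2 of 14 T and NK cell and 1 of 7 tested B and plasma cell markers. The neutrophil markers had a median Wald statistic of 3.45 beside a median log2 fold change of -0.05, so their folds and statistics differed in sign in part. No marker of these lists was at 0 over all libraries, but Ear1 and Cldn5 had a mean normalised count of 0.3 and Mzb1 1.6. Summed levels of each group of libraries were not analysed here, and the part of these cells in the rise of the 5 genes was not tested.

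Inflammatory monocytes had 2 of the 10 genes that rose and 0 that fell by the authors' DESeq2 test, with 3 higher and 0 lower at an unadjusted p under 0.05. Over the 14506 genes tested in inflammatory monocytes, 4.13% rose and 1.77% fell, and 1731 were higher and 1124 lower at an unadjusted p under 0.05. Beside Tnfrsf9, Tnfsf10 rose, with a log2 fold of 1.27 in the authors' deposited table (Wald statistic 3.15, adjusted p = 0.035). This call was lost when p-values were adjusted over every gene with a p-value. Tnf had 0.71 and missed the threshold in the authors' deposited table (Wald statistic 2.71, adjusted p = 0.084). The genes that had led in TAM after Tnfrsf9 had small values here: Tnfsf14 had 0.23 and Tnfrsf1b 0.21 in the authors' deposited table (adjusted p = 0.64 and 0.72). Tnfrsf23 had 0.11, Tnfsf9 0.18, Tnfsf12 -0.04, Tnfsf13b -0.15 and Tnfrsf1a -0.30 in the authors' deposited table, with adjusted p-values from 0.30 to 0.96. In this comparison 8 of 10 macrophage, 6 of 11 neutrophil, 2 of 5 tested eosinophil and 1 of 6 tested B and plasma cell markers rose. Of the 8 classical monocyte markers 0 rose, and 0 rose in the remaining lists. No marker of any list fell. The part of these cells in the rise of Tnfrsf9 and Tnfsf10 was not tested.

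In granulocytes, 4 of the 10 genes rose and 2 fell, against 7.32% that rose and 9.9% that fell over the 15679 genes tested. Beside Tnfrsf9, the 3 others that rose were all ligand genes. Tnfsf9 had a log2 fold of 1.24 in the authors' deposited table (Wald statistic 4.50, adjusted p = 0.00026), so transcripts of 4-1BB and of its ligand both rose in the granulocyte libraries. Tnfsf10 had 1.79 in the authors' deposited table (Wald statistic 4.30, adjusted p = 0.00052), and Tnf had 1.03 (Wald statistic 3.67, adjusted p = 0.0038). Those that fell were both receptor genes. Tnfrsf1a had -0.51 in the authors' deposited table (Wald statistic -3.02, adjusted p = 0.021), and Tnfrsf23 had -0.81 (Wald statistic -2.76, adjusted p = 0.038). The call of Tnfrsf23 was lost, at an adjusted p of 0.075, when the authors' deposited p-values were adjusted over every gene. Tnfrsf1b had 0.02 with a Wald statistic of 0.04 in the authors' deposited table. Tnfsf14 had -0.53, Tnfsf13b -0.46 and Tnfsf12 0.47, all with an adjusted p of at least 0.13 in the authors' deposited table. In this subset 1 of 11 neutrophil, 4 of 10 macrophage and 3 of 8 classical monocyte markers rose. So did 1 of 5 tested eosinophil, 1 of 7 tested B and plasma cell and 1 of 4 tested endothelial markers. Those that fell were 3 of 14 T and NK cell and 2 of 6 fibroblast markers. The part of these cells in these values was not tested.

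**Figure D3:**
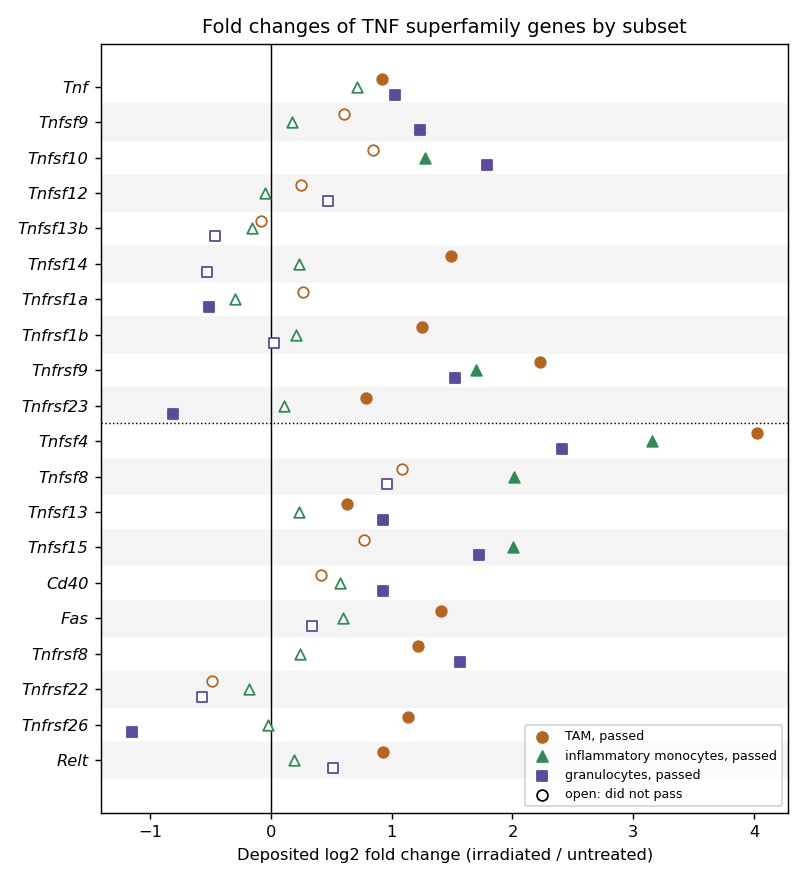
Deposited log2 fold change (x axis, irradiated over untreated) of the 10 genes (above the dotted line) and of other superfamily genes called in at least 1 subset, with Tnfrsf22 added as a neighbour of Tnfrsf23; filled symbols passed an adjusted p of 0.05 and open ones did not. Tnfrsf9 and Tnfsf4 are filled in all 3 subsets, and Tnfrsf23 and Tnfrsf26 lie on opposite sides of 0 in TAM and granulocytes.

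Tnfrsf23 was the gene of the 10 that was called in opposite directions, as it rose in TAM and fell in granulocytes. The TAM and granulocyte libraries come in part from the same tumours but are separate libraries. A joint test of opposite directions used the weaker p-value of each gene with Wald statistics of unlike sign, which was 0.0057 for Tnfrsf23. After Benjamini-Hochberg adjustment over the 15679 genes tested in both, its adjusted p was 0.56, so the reversal was not called. Tnfsf14, higher in TAM and lower in granulocytes, had a larger p of 0.033. None of the 10 genes passed this joint test between TAM and granulocytes, and 0.0957% of all genes passed it. Before adjustment 2 of the 10 genes were under 0.05. The share of all genes under 0.05 before adjustment was not counted, so this number has no background beside it. Between TAM and inflammatory monocytes, and between inflammatory monocytes and granulocytes, 0.0% of genes passed, and none of the 10 genes was under 0.05 before adjustment. Other differences between subsets, such as the rise of Tnfrsf1b in TAM beside its value near 0 in granulocytes, were not tested, because the deposited folds come without standard errors.

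Tnfrsf23 lies on mouse chromosome 7 in a row with Tnfrsf22 and Tnfrsf26, with Tnfrsf22 in the middle. Tnfrsf22 also encodes a TRAIL decoy receptor of the mouse, and Tnfrsf26 a related receptor. Tnfrsf26 had log2 fold changes of 1.13 in TAM (adjusted p = 0.00067) and -1.15 in granulocytes (adjusted p = 0.003) in the authors' deposited tables. Its value in inflammatory monocytes was -0.03 in the authors' deposited table, beside 0.11 for Tnfrsf23. Its adjusted p in the joint test of opposite directions was 0.078. Tnfrsf22, between them, did not pass in any subset and was negative in each, with -0.49 in TAM, -0.18 for inflammatory monocytes and -0.57 for granulocytes in the authors' deposited tables. By GENCODE M21 transcripts, 18.0% of the 50-base words of Tnfrsf23 also occur in Tnfrsf22 and 0.0% in Tnfrsf26, so reads could be assigned to the wrong gene within the first pair. Exons of Tnfrsf23 also overlap the antisense gene E230032D23Rik over 164 bases, 4.14% of their length. E230032D23Rik had 0.72 in TAM (adjusted p = 0.047) and -0.99 in granulocytes (adjusted p = 0.0089) in the authors' deposited tables. The library kit keeps no strand, so reads from the overlap cannot be told apart.

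**Figure D4:**
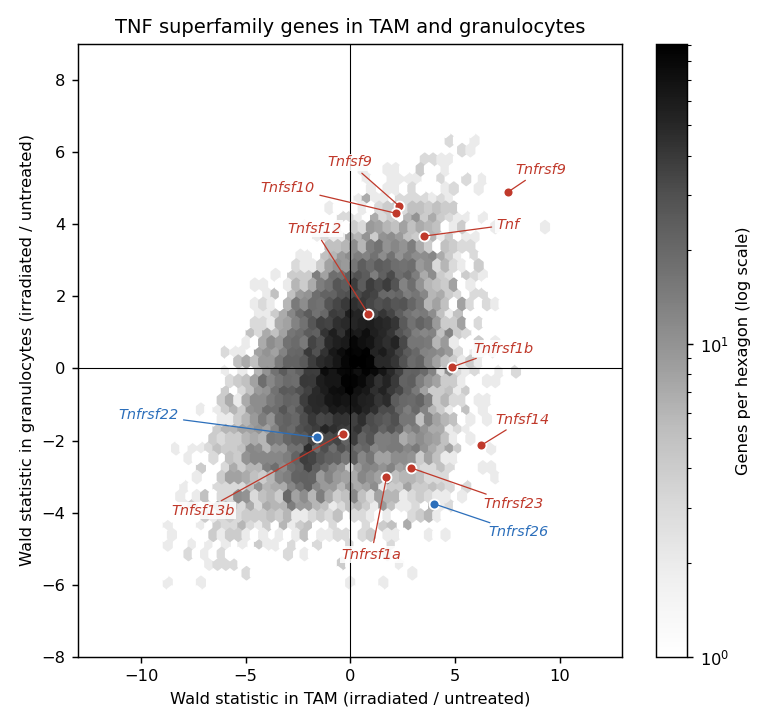
Wald statistics of all genes tested in both TAM (x axis) and granulocytes (y axis) as grey hexagons shaded by gene number, with the 10 genes in red and the chromosome 7 neighbours Tnfrsf22 and Tnfrsf26 in blue. Tnfrsf9 stands at the upper right (7.54 and 4.90), and Tnfrsf23 and Tnfrsf26 at the lower right.

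Ligands and receptors known to bind each other are set side by side. The pair of Tnfsf9 and Tnfrsf9 had log2 fold changes in the authors' deposited tables of 0.61 and 2.23 for TAM, 0.18 and 1.70 for inflammatory monocytes, and 1.24 and 1.53 for granulocytes. Both were called in granulocytes, and the receptor without the ligand in the other subsets. Exons of Tnfsf9 overlap the long non-coding gene Gm11110 on the opposite strand over 14.9% of their length. Gm11110 had 0.39 in TAM, 0.09 for inflammatory monocytes and 0.90 for granulocytes in the authors' deposited tables, past the threshold in granulocytes (adjusted p = 0.0064). Reads from that overlap cannot be assigned without strand. For LIGHT, which rose in TAM, the receptor gene Ltbr had -0.01 and Tnfrsf14 (HVEM) had 0.28 in TAM in the authors' deposited table, and neither passed. For TRAIL, which rose in inflammatory monocytes and granulocytes, the signalling receptor gene Tnfrsf10b had 0.83 and 0.13 in those subsets in the authors' deposited tables and did not pass, at a mean normalised count of only 25.3. For TWEAK, the receptor gene Tnfrsf12a (Fn14) was negative in all 3 subsets without passing, from -0.38 in TAM to -0.40 in granulocytes in the authors' deposited tables. For BAFF, Tnfrsf13b (TACI) had values from 0.05 in granulocytes to 0.35 in inflammatory monocytes in the authors' deposited tables and did not pass. Tnfrsf13c, the BAFF receptor gene, had 0.23 in TAM, 0.87 in inflammatory monocytes and 1.31 for granulocytes in the authors' deposited tables, none past the threshold, at a mean normalised count of 27.1. About 48.3% of the exon length of Tnfsf12 lies in Tnfsfm13, an annotated read-through gene with Tnfsf13 on the same strand, so reads of Tnfsf12 may have been split. Tnfsfm13 itself had a mean normalised count of 12.6 and log2 fold changes of 0.22, -0.03 and 0.40 in TAM, inflammatory monocytes and granulocytes in the authors' deposited tables, none past the threshold.

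The other 12 ligand genes of the superfamily contained 10 that were tested in TAM, of which 2 rose, 8 in inflammatory monocytes, of which 3 rose, and 9 in granulocytes, of which 3 rose. Over all genes tested, 13.9% rose in TAM, 4.13% in inflammatory monocytes and 7.32% for granulocytes. At an unadjusted p under 0.05, 0 were lower in each subset by the authors' DESeq2 test. Among all genes tested, 2919 of 16851 were lower at that p in TAM, 1124 of 14506 in inflammatory monocytes and 2619 of 15679 in granulocytes. Tnfsf4, which encodes OX40 ligand, a costimulator of T cells, rose in all 3 subsets, with log2 fold changes of 4.03 in TAM (adjusted p = 3e-12), 3.16 in inflammatory monocytes (adjusted p = 1.6e-06) and 2.41 in granulocytes (adjusted p = 0.0005) in the authors' deposited tables. Its mean normalised count was 95.1, far under the 4643 of Tnfrsf9. Tnfsf13, which encodes APRIL, a plasma cell survival factor, rose in TAM (0.63) and granulocytes (0.93) in the authors' deposited tables. Tnfsf8, the CD30 ligand, rose in inflammatory monocytes (2.01), and Tnfsf15 (TL1A) in inflammatory monocytes (2.00) and granulocytes (1.73), the last at a mean normalised count of 28.1, in the authors' deposited tables. Lta and Ltb, the lymphotoxin genes on each side of Tnf, had 0.83 and 0.66 in TAM in the authors' deposited table without passing, where Tnf rose. The mean normalised count of Lta was only 8.4, and that of Ltb 1552.

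Of 19 other receptor genes tested in TAM, 4 rose (21.1%, beside 13.9% of all genes) and 0 fell, with 5 higher and 1 lower at an unadjusted p under 0.05 by the authors' DESeq2 test. At that p, 3272 of all 16851 genes were higher and 2919 lower. Fas, the death receptor that p53 is known to induce, had a log2 fold of 1.41 in TAM (Wald statistic 6.55, adjusted p = 4.4e-09), 0.60 in inflammatory monocytes (adjusted p = 0.077) and 0.34 in granulocytes (adjusted p = 0.36) in the authors' deposited tables. Relt, a TRAF-binding receptor gene, had 0.93 in TAM and Tnfrsf8 (CD30), next to Tnfrsf1b on chromosome 4, had 1.22 in the authors' deposited table. In granulocytes 2 of 18 rose and 1 fell, which is 11.1% and 5.56% beside 7.32% and 9.9% of all genes. Those that rose were Cd40, the receptor for T cell help, with 0.93, and Tnfrsf8 with 1.57 in the authors' deposited table, and the one that fell was Tnfrsf26. In inflammatory monocytes 0 of 18 passed, with 1 higher and 0 lower at an unadjusted p under 0.05, beside 1731 and 1124 of 14506 genes.

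The 3 tables were also searched for genes whose pattern over the 3 subsets was nearest to that of Tnfrsf9. Among 10151 genes with a mean normalised count of at least 50, likeness was the Euclidean distance between the 3 Wald statistics. The nearest was Tnfsf4 (distance 0.65), with Wald statistics of 7.67 in TAM, 5.93 for inflammatory monocytes and 4.31 for granulocytes in the authors' deposited tables. Ermard came next (distance 0.94; 6.92, 5.25 and 4.34 in the authors' deposited tables), and then Phlda3 (distance 1.27; 8.49, 6.50 and 5.05 in the authors' deposited tables). The measure rests on 3 comparisons only.

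Genes that act around the receptors were counted in the same way. Of 23 adaptor and ubiquitin enzyme genes, which act between receptors and NF-kB in either direction, 9 rose in TAM (39.1%, beside 13.9% of all genes) and 0 fell. At an unadjusted p under 0.05, 13 were higher and 0 lower, beside 3272 and 2919 of 16851 genes. In the authors' deposited table Ikbkb, which encodes the kinase IKK2, had a log2 fold of 0.57, Birc3, the ubiquitin ligase cIAP2, 0.87, Chuk, the kinase IKK1, 0.60, Map3k14, the kinase NIK, 0.80, and Rnf31, the linear ubiquitin ligase HOIP, 0.64. In granulocytes 2 rose and 2 fell, each 8.7% of the list, beside 7.32% and 9.9% of all genes. There Traf6 had -0.95 and Ripk1, the kinase recruited by TNFR1, -0.56, against 0.62 and 0.43 in TAM in the authors' deposited tables, all past the threshold, while Sharpin (0.41) and Rbck1 (0.32), the other members of the linear ubiquitin complex, rose in granulocytes in the authors' deposited table. The joint test of opposite directions gave Ripk1 an adjusted p of 0.16 and Traf6 one of 0.40. In inflammatory monocytes 0 of 23 passed. By the authors' DESeq2 test at an unadjusted p under 0.05, 3 were higher and 0 lower, beside 1731 and 1124 of 14506 genes.

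Of 10 genes of the death receptor pathway, 2 rose in TAM and 5 rose in granulocytes, beside 13.9% and 7.32% of all genes. In granulocytes Fadd, the death domain adaptor gene, had a log2 fold of 0.81, Mlkl, the effector of necroptosis, 0.82, and Bid, which links death receptors to mitochondria, 0.48 in the authors' deposited table. Bid was lower in TAM without passing (Wald statistic -2.39 in the authors' deposited table), and the joint test of opposite directions did not call it. Cflar, an inhibitor of death receptor signalling, rose in TAM with 0.71 in the authors' deposited table.

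Of the 16 genes that process TNF protein or control its mRNA, 7 rose (43.8%) and 1 fell (6.25%) in TAM, beside 13.9% and 12.5% of all genes. Zfp36, which encodes tristetraprolin, a protein that destabilises Tnf mRNA, had a log2 fold of 1.26, and its paralogue Zfp36l1 had 1.13 in the authors' deposited table. Furin, a protease that activates the TNF sheddase ADAM17, had 0.88, Litaf, an LPS-induced gene first described as a TNF regulator, 0.46, and Rhbdf2, the trafficking partner of ADAM17, 0.45 in the authors' deposited table. In granulocytes 2 fell (12.5%, beside 9.9% of all genes) and 0 rose (beside 7.32%). Those that fell were Litaf with -0.85 and Rhbdf1 with -2.09 in the authors' deposited table. By the authors' DESeq2 test at an unadjusted p under 0.05, 3 were lower and 2 higher, beside 2619 and 2062 of 15679 genes. The joint test of opposite directions in TAM and granulocytes did not call Litaf (adjusted p = 0.15). In inflammatory monocytes 1 of the 16 rose (6.25%) and 2 fell (12.5%), beside 4.13% and 1.77% of all genes. Map3k8, the kinase TPL2 that promotes TNF production, rose with 0.77, while Elavl1 (-0.38) and Zfp36l2 (-0.46) fell in the authors' deposited table.

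The 26 NF-kB response genes include feedback inhibitors and cytokines that TNF can induce. In TAM 21 rose (80.8%, beside 13.9% of all genes) and 0 fell (beside 12.5%). At an unadjusted p under 0.05, 23 were higher and 0 lower, beside 3272 and 2919 of 16851 genes. Their median log2 fold change was 1.00, beside 0.03 over all genes tested. Nfkbie, an inhibitor of NF-kB, had 0.98, Il1b 1.50, Tnfaip2 1.37, Nfkbia 1.27 and Tnfaip3, the deubiquitinase A20, 1.81 in the authors' deposited table. In granulocytes 6 rose (23.1%) and 4 fell (15.4%), beside 7.32% and 9.9% of all genes. Icam1, an adhesion molecule gene, had 1.14 and Nfkbie 0.80, while Nfkb1, the gene of the p50 precursor, had -0.94, Ptgs2 -0.89 and Ier3 -0.78 in the authors' deposited table. Il1b, Ptgs2 and Ier3 were called in opposite directions in TAM and granulocytes, and the joint test called none of them (adjusted p = 0.35 for Il1b, 0.13 for Ptgs2 and 0.15 for Ier3). In inflammatory monocytes 1 rose, the chemokine gene Ccl5 with 1.70 in the authors' deposited table, and 0 fell. This is 3.85% beside 4.13% of all genes that rose, and 0 beside 1.77% that fell. At an unadjusted p under 0.05, 7 were higher and 1 lower, beside 1731 and 1124 of 14506 genes.

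**Figure D5:**
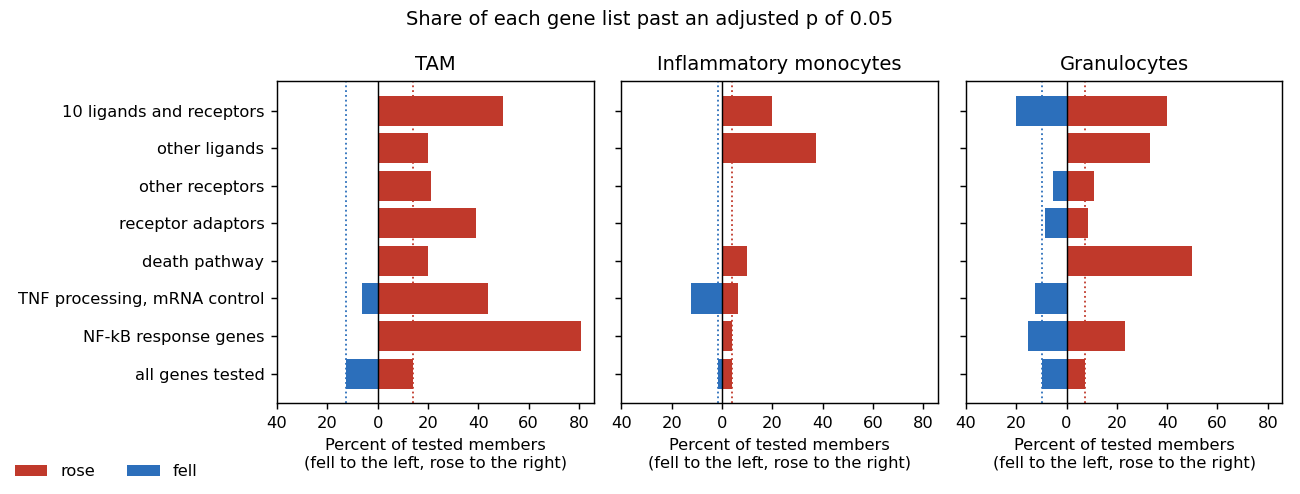
Percent of the tested members of each gene list that rose (right) or fell (left) at an adjusted p under 0.05 in each subset; dotted lines carry the share over all genes tested across the panel. In TAM 80.8% of NF-kB response genes rose beside 13.9% of all genes, and in granulocytes 5 of 10 death pathway genes rose beside 7.32% of all genes.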

How the data were processed

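RNA of sorted myeloid cells was extracted with an RNeasy Plus kit and made into Nextera XT libraries, per the labels' protocols, and Nextera XT is a transposase kit that keeps no strand. Per the submitters' processing notes, the genome build was mm39 (GRCm39) and the tools were R 4.0.2, DESeq2 1.28.1, STAR 2.7.6a and fastp 0.20.1. For counting and annotation, tool and settings were not given in the sources used here. The authors deposited 3 tables of comparisons. As a signal per gene, the authors deposited the mean of its normalised counts over libraries, and this value is identical in the 3 tables. The authors' log2 values are fold changes taken here to be shrunken, since some genes pair a fold near 0 or of the other sign with a large Wald statistic, so a small fold does not show a small effect. As a score, the authors give the Wald statistic. The deposited p-values differ by at most 0.00211 in log10 from those a normal distribution gives for it. Adjusted p-values deposited by the authors are Benjamini-Hochberg values, absent for genes with low means. Libraries of a group carry separate tumour numbers. Since the mean is identical in the 3 tables, the spread behind each p-value may have been estimated from all 41 libraries together. A p-value therefore cannot be read as resting only on the spread between tumours of the groups compared. Of the 15 tumour numbers, 11 gave all 3 subsets, so libraries of different subsets are in part from the same tumours.

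Called genes, joint tests of opposite directions (the larger p where Wald signs differ, Benjamini-Hochberg adjusted), list counts and alternatives were computed here with Python 3.11.15, numpy 2.4.6, scipy 1.17.1 and pandas 2.3.3, with matplotlib 3.10.9 for figures. Adjustment and the joint test were tested on simulated data. Exon lengths, overlaps, neighbours and shared 50-base words came from GENCODE M21 (GRCm38), and promoters from RefSeq (GRCm38.p6), both matched by symbol. The 10 genes, the 6 lists and the 10 marker lists were chosen with earlier results of these data known. All 10 genes are named. From each list, genes given with values are up to 5 per comparison with the smallest adjusted p, and any of the other ligands and receptors may be named. Values of some genes of the death receptor list are not reported here. For likeness, the gene of the 10 with the smallest adjusted p was taken, and the 3 nearest genes with a named symbol and a mean of at least 50 are given. The TAM values of Traf6, Ripk1 and Bid and the marker and overlapping genes named were chosen after their values were seen. Alternatives were other thresholds, adjustment sets, fold and mean criteria and scalings of the Wald statistic.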

Additional observations from a re-analysis of the deposited data

How the results depend on the processing

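Values of the 10 genes in the 3 comparisons were recomputed under 8 alternatives: 214 of 240 kept their side of the threshold, 23 lost their call and 3 gained one. Only subtracting the median Wald statistic could change a direction, and it changed none. The other settings keep the sign by construction. Dividing Wald statistics by their robust SD (2.72 in TAM, 1.56 in inflammatory monocytes, 2.09 in granulocytes) left 0 of the 10 genes and 0 of the listed genes called in each subset. Over all genes it left 0 for TAM, 25 for inflammatory monocytes and 0 for granulocytes. Tnfrsf9 in inflammatory monocytes had an adjusted p of 0.12 under it. Requiring also an absolute log2 fold of 1 or more left 3 of the 10 genes in TAM, in place of 5, without Tnf and Tnfrsf23, and in granulocytes it ended the calls of Tnfrsf1a and Tnfrsf23. It left 21 of 46 called list genes in TAM, 4 of 8 in inflammatory monocytes and 10 of 27 in granulocytes. A threshold of 0.01 left 1 of 2 genes in inflammatory monocytes, and 4 of 8 list genes there and 15 of 27 in granulocytes, and it ended the calls of Tnfrsf23 in TAM and of Tnfrsf1a and Tnfrsf23 in granulocytes. Adjusting over all genes that have a p-value left 1 of 2 in inflammatory monocytes and ended the call of Tnfrsf23 in granulocytes. A threshold of 0.10 added Tnf in inflammatory monocytes and Tnfsf9 and Tnfsf10 in TAM. For these settings the loss or gain follows from the stricter or looser criterion. Subtracting the median Wald statistic, a mean count of at least 50, and folds of the same sign changed none of the 30 values' calls. The same-sign setting could not change them, since fold and Wald statistic of all 10 genes had the same sign. The mean criterion removed none of the 10 genes and acted only through the adjustment. Adjusting the joint test of opposite directions over every gene with both p-values called none of the 10 genes, as before. Leaving out single libraries was not run, since the tables hold no values of single libraries. No paired analysis was possible because the tables hold no values of single libraries, and untreated and irradiated libraries share 0 tumour numbers. Depth per library is unknown, which limits Tnfsf12, Tnfsf13b and Tnfsf10, the lowest of the 10 genes per kb.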
